A study of Mus musculus with 28 samples.

Results

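The interferon regulatory factors (IRFs) are described here through 8 genes, Irf1 to Irf5 and Irf7 to Irf9, taken by name from the first column of each count file, out of 24421 genes in all. IRFs are transcription factors that share a DNA-binding domain with a row of conserved tryptophans and recognise GAAA repeats. Some of them relay signals from nucleic acid sensors or interferon receptors to interferon and antiviral genes, while Irf4 and Irf8 bind together with ETS and AP-1 family partners and set the identity of dendritic cells, B cells and plasma cells. In mice Irf8 is needed for type 1 conventional dendritic cells and for the function of plasmacytoid dendritic cells, and Irf4 for part of the type 2 conventional dendritic cells.

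Transcripts of dendritic cells (DCs) sorted from the spleens of untreated C57Bl/6 mice aged 6 to 12 weeks were read by bulk RNA-seq in 28 libraries. The group pDC_TG held 4 libraries of plasmacytoid DCs (pDCs, the main producers of type I interferon) taken from Itgax-cre animals on the Irf8fl/fl background. There the promoter of the CD11c gene, Itgax, expresses the Cre recombinase, which cuts the loxP-flanked Irf8 gene. The control groups, called WT in the labels, came from Irf8fl/fl mice without the Cre and held 8 libraries each of CD24+ conventional DCs (cDC1_WT), CD172a+ conventional DCs (cDC2_WT) and pDCs (pDC_WT). All 4 groups thus carry the floxed Irf8 gene, the controls have no Cre, and Itgax is itself expressed in every one of these populations.

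Levels are CPM, counts scaled to library size with TMM factors, and comparisons of levels between genes are per kilobase of annotated exon. Calls rest on quasi-likelihood tests in edgeR over 13159 genes, at a Benjamini-Hochberg adjusted p below 0.05. All 8 passed the filter on low counts. Gene counts ran from 17299285 to 30787679 per library. The sorted populations carried their defining markers: summed pDC markers (6 genes) were at 8474 to 10966 CPM in pDC_TG and 8313 to 10906 CPM in pDC_WT, against at most 123 CPM in cDC1_WT and 262 CPM in cDC2_WT. Within that sum Siglech averaged 1454 CPM in pDC_TG and 2298 CPM in pDC_WT, and Ly6d 4256 CPM in pDC_TG and 2904 CPM in pDC_WT, neither of which passed the test, while Bst2 fell to 743 CPM in pDC_TG, against 1156 CPM in pDC_WT (adjusted p = 0.000379). Summed cDC1 markers were at 500.1 to 884 CPM in pDC_TG and 372 to 441 CPM in pDC_WT. Summed cDC2 markers were at 1037 to 1193 CPM in pDC_TG and 1708 to 2313 CPM in pDC_WT. Libraries overlapped in neither list, but members of each list moved in both directions. Among cDC1 markers Cd8a averaged 660 CPM in pDC_TG and 267 CPM in pDC_WT, but Clec9a 6.59 CPM in pDC_TG and 91.6 CPM in pDC_WT. Among cDC2 markers Cd209a averaged 320 CPM in pDC_TG and 782 CPM in pDC_WT, but Itgam 31.9 CPM in pDC_TG and 0.401 CPM in pDC_WT. The part of these markers in the IRF levels was not tested. The cDC1 gene Xcr1 averaged 1153 CPM in cDC1_WT, and Clec4a4, a cDC2 lectin gene, 218 CPM in cDC2_WT. Summed cDC1 markers were at 2891 to 3769 CPM in cDC1_WT, and summed cDC2 markers at 2564 to 3003 CPM in cDC2_WT. The cDC2 list separated cDC2_WT from pDC_WT less well. Cd4 averaged 777 CPM in pDC_WT and 252 CPM in cDC2_WT, and Cd209a 782 CPM and 816 CPM. All cDC2 markers except Cd4 averaged highest in cDC2_WT. The library pDC_TG replicate 4 stood apart by its neutrophil transcripts: all 9 neutrophil markers had a count in pDC_TG, and their sum reached 196 CPM there, while pDC_TG replicates 1 to 3 had 0.230 to 4.59 CPM and pDC_WT libraries 0.195 to 2.62 CPM. For the IRF genes called between pDC_TG and pDC_WT, values without it are given as well, and for the other results that use it, counts of calls.

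Between pDC_TG and pDC_WT, 5 IRF genes differed. Irf2 and Irf4 rose, Irf1, Irf5 and Irf8 fell, and Irf3, Irf7 and Irf9 did not pass the test. Called genes thus made up 5 of 8 genes of the family, whereas 14.8% of all tested genes were called in this comparison (7.72% higher and 7.04% lower). Irf8 is among the 5 as the gene that the Cre targets, so its fall was set by the design. The family was also chosen with earlier results of these data known, so these shares are described and not tested. The median log2 fold change (log2FC) was 0.01 over the 8 genes and 0 over all genes tested. Without pDC_TG replicate 4 the number called was also 5. In bulk samples a smaller share of cells with a transcript and less of it per cell cannot be told apart.

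**Figure D1:**
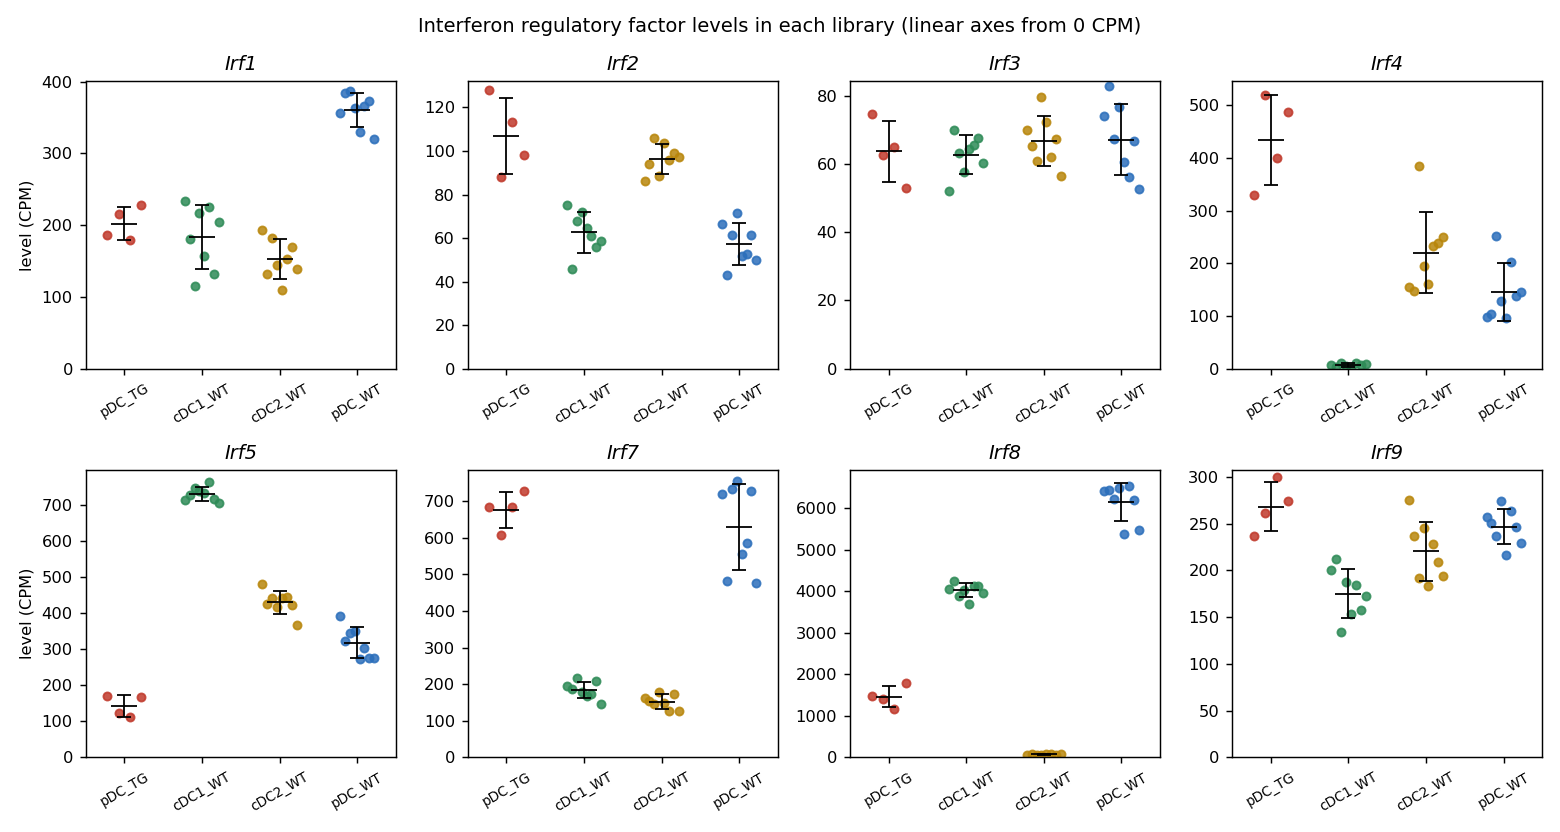
Level of each IRF gene in every library, in CPM on linear axes, for pDC_TG (4 libraries) and cDC1_WT, cDC2_WT and pDC_WT (8 each). Points are libraries, and black bars give the mean ± SD. Irf8 separates all 4 groups, Irf3 separates none, and by their means Irf5 is lowest and Irf4 highest in pDC_TG.

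Irf8 (chr8:120736358-120756694, plus strand, protein coding, GRCm38) is the gene that the Cre targets. It was at 1489.7, 1402, 1166 and 1787 CPM in the pDC_TG libraries, against a lowest, median and highest of 5378, 6316 and 6536 CPM in pDC_WT. No pDC_TG library came near the pDC_WT range, and the remaining level was 23.8% of that in pDC_WT (log2FC -2.07, SE 0.13, adjusted p = 4.43e-13). Without pDC_TG replicate 4 the log2FC was -2.18 (adjusted p = 1.73e-12). Permuting the labels in all 495 ways, an exact two-sided test on log2 CPM, gave its smallest possible p = 0.00202. Counts per gene include exons outside the part that Cre removes, so the transcripts left do not show how many alleles were cut.

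What remained of Irf8 in pDC_TG was still far above the level in cDC2_WT, whose libraries had a lowest, median and highest of 49.2, 74.7 and 87.1 CPM. The difference between pDC_TG and cDC2_WT was 20.2-fold (log2FC 4.34, SE 0.12, adjusted p = 2.13e-23). In cDC1_WT the lowest, median and highest were 3702, 4055 and 4249 CPM, so pDC_TG held 36.3% of the cDC1_WT level (log2FC -1.46, SE 0.12, adjusted p = 1.445e-11). The order was thus pDC_WT, cDC1_WT, pDC_TG and cDC2_WT, and each neighbouring pair passed the test without overlap of libraries. The fall of cDC1_WT below pDC_WT was the smallest step (log2FC -0.61, SE 0.09, adjusted p = 1.66e-06) and did not pass a test against a 1.5-fold change (adjusted p = 0.359).

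Irf4 (chr13:30749226-30766976, plus strand) encodes the closest relative of Irf8 and also drives the plasma cell programme of B cells. It was at 329.5, 519.5, 399.8 and 488 CPM in pDC_TG, with a lowest, median and highest of 95.9, 133 and 253 CPM in pDC_WT. Every pDC_TG library was above every pDC_WT library, although the pDC_WT libraries themselves spread over a wide range. The rise was 2.98-fold (log2FC 1.58, SE 0.32, adjusted p = 0.000775) and was kept without pDC_TG replicate 4 (log2FC 1.51, adjusted p = 0.00408).

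Among the control populations Irf4 was lowest in cDC1_WT, at 1.09, 7.40 and 10.7 CPM as lowest, median and highest. In cDC2_WT these values were 147, 214 and 385 CPM. cDC1_WT was 21.5-fold below pDC_WT (log2FC -4.42, SE 0.32, adjusted p = 6.83e-13) and 32.5-fold below cDC2_WT (log2FC -5.02, SE 0.33, adjusted p = 1.72e-13). The libraries of cDC2_WT and pDC_WT overlapped, and their difference did not pass the test (log2FC 0.60, 95% interval 0.04 to 1.16, adjusted p = 0.0638). It did pass with the replicate number as a block (log2FC 0.62, adjusted p = 0.00562) and in a fit of these 2 groups alone (adjusted p = 0.0240).

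The mean Irf4 level in pDC_TG, 434 ± 86.2 CPM (SD, n = 4), lay above the 221 ± 77.7 CPM of cDC2_WT (n = 8), with an overlap of libraries through cDC2_WT replicate 3. That difference passed the test (log2FC 0.98, SE 0.32, adjusted p = 0.0140), but not without pDC_TG replicate 2 (adjusted p = 0.0504) or against a 1.5-fold change (adjusted p = 0.125). The cDC2_WT library with the highest Irf4 level was replicate 3, and so was the pDC_WT library with the highest level.

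Plasma cell genes moved in both directions beside Irf4. All 5 plasma cell markers had counts in pDC_TG and in pDC_WT, and their sum was 1615 to 1775 CPM in pDC_TG and 953 to 1452 CPM in pDC_WT. Sdc1 (CD138) averaged 1108 CPM in pDC_TG and 51.2 CPM in pDC_WT, whereas Mzb1, a chaperone gene of antibody-secreting cells, averaged 40.1 CPM in pDC_TG and 197 CPM in pDC_WT. Summed B cell markers were at 84.2 to 113 CPM in pDC_TG and 64.0 to 118 CPM in pDC_WT, where the B cell factor gene Pax5 averaged 0.0666 CPM in pDC_TG and 0.00769 CPM in pDC_WT. Their part in the Irf4 level was not tested.

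Set against each other per kilobase, Irf8 and Irf4 gave each population its own balance. The ratio of Irf4 to Irf8 was 0.318 to 0.533 in pDC_TG, 0.000422 to 0.00379 in cDC1_WT, 2.45 to 9.69 in cDC2_WT and 0.0219 to 0.0584 in pDC_WT. The ranges of the 4 groups did not overlap, and that of pDC_TG lay between those of pDC_WT and cDC2_WT. Irf8, by which Irf4 is divided here, is the gene that the Cre targets, so its fall alone raises the ratio in pDC_TG. With the longest annotated transcript in place of all exons, the mean ratio of Irf8 to Irf4 was 4.74 in pDC_TG and 64.1 in pDC_WT, against 2.40 and 32.5 with all exons in the same order of groups.

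**Figure D2:**
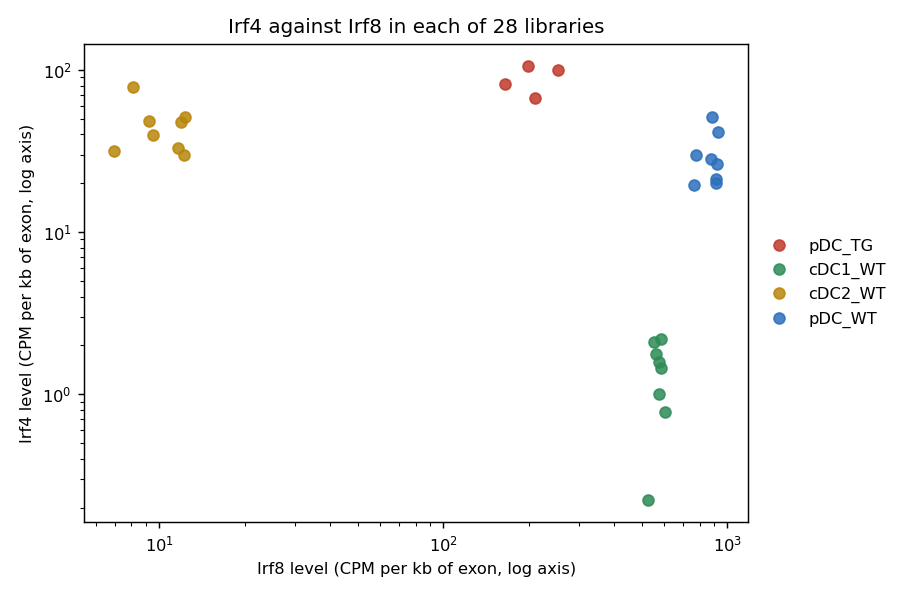
Irf4 level (vertical) against Irf8 level (horizontal) in each library, both in CPM per kilobase of exon on log axes. Points are libraries coloured by group. The 4 groups form separate clouds, with pDC_TG highest in Irf4 on average and between cDC2_WT and cDC1_WT in Irf8.

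Irf1 and Irf2 are an opposing pair, Irf1 an interferon-inducible activator and Irf2 a factor that can occupy the same sites and repress. Irf1 (chr11:53770014-53778374, plus strand) was at 186, 216, 179 and 228 CPM in pDC_TG, and at 321, 365 and 387 CPM in pDC_WT as lowest, median and highest. The groups did not overlap, and the level in pDC_TG was 56.1% of that in pDC_WT (log2FC -0.83, SE 0.15, adjusted p = 0.000221). This fall did not pass a test against a 1.5-fold change (adjusted p = 0.221). Without pDC_TG replicate 4 it was -0.90 on the log2 scale (adjusted p = 0.000522).

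The Irf1 level of pDC_TG was within the range of the conventional DCs. The lowest, median and highest were 115, 193 and 234 CPM in cDC1_WT and 110.3, 149 and 194 CPM in cDC2_WT, both below every pDC_WT library. The difference of pDC_TG from cDC1_WT did not pass the test (log2FC 0.14, 95% interval -0.16 to 0.44, adjusted p = 0.445), but did with total counts as the scaling (log2FC 0.43, adjusted p = 0.0140). The difference of pDC_TG from cDC2_WT passed (log2FC 0.40, adjusted p = 0.0256) but not without pDC_TG replicate 2 (adjusted p = 0.0703) or replicate 4 (adjusted p = 0.0941). Between cDC1_WT and cDC2_WT the difference did not pass either (log2FC 0.26, adjusted p = 0.0832).

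Irf2 (chr8:46739732-46847458, plus strand) went the other way. Its levels were 128, 88.0, 113 and 98.4 CPM in pDC_TG, against 43.2, 56.98 and 71.6 CPM as lowest, median and highest in pDC_WT. Again the libraries were separate, with a 1.87-fold rise (log2FC 0.90, SE 0.12, adjusted p = 2.32e-06), and the rise was 0.94 on the log2 scale without pDC_TG replicate 4 (adjusted p = 8.05e-06).

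For Irf2 the groups lay near 2 levels. The difference of pDC_TG from cDC2_WT (86.1, 96.6 and 106 CPM) did not pass the test (log2FC 0.15, 95% interval -0.11 to 0.40, adjusted p = 0.345), nor did that of cDC1_WT (45.9, 62.7 and 74.95 CPM) from pDC_WT (log2FC 0.13, 95% interval -0.08 to 0.34, adjusted p = 0.288). cDC2_WT was above pDC_WT (log2FC 0.75, adjusted p = 2.57e-07) and cDC1_WT below cDC2_WT (log2FC -0.62, adjusted p = 8.63e-06), in both cases without overlap, though neither passed a test against a 1.5-fold change (adjusted p = 0.05001 and 0.451 in that order). With total counts as the scaling, Irf2 was also called between pDC_TG and cDC2_WT (log2FC 0.35, adjusted p = 0.0214). Per kilobase, the ratio of Irf2 to Irf1 was 0.219 to 0.370 in pDC_TG and 0.0604 to 0.106 in pDC_WT, with no overlap between these groups, and 0.137 to 0.317 in cDC1_WT and 0.239 to 0.505 in cDC2_WT.

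The promoter windows of the 5 called genes are among the places where their regulators could bind. RefSeq windows (GRCm38.p6, 250 bases before to 50 after a start) were found for all 8 genes, in 11 windows. They were searched on both strands for GAAA, any 2 bases and GAAA (interferon response element), for GGAA, any 2 bases and GAAA (ETS-IRF element, bound by PU.1 or SPIB with Irf4 or Irf8) and for TTCNNNGAA (STAT element). Of 32851 windows of the same length in the table, 3.44%, 2.72% and 8.30% held these motifs, in that order. Matches were found in Irf1, Irf2 and Irf8 and in no other member, so the called genes Irf4 and Irf5 had none. The stretches that hold them are shown with matches in capitals, 5′ to 3′ on the plus strand, because these 3 genes changed in pDC_TG.
Irf2, chr8:46739495-46739549: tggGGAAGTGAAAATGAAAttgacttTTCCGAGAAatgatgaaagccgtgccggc
Irf8, chr8:120736167-120736233: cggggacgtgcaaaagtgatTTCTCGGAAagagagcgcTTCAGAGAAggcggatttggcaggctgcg
Irf1, chr11:53769904-53769952: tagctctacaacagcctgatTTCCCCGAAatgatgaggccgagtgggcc
In Irf2 the ETS-IRF and interferon response motifs overlap in the first run of capitals and a STAT motif forms the second. In Irf8 both runs are STAT motifs, and in Irf1 the single run is one. A match gives the letters in the window and no binding, and its part in the changes was not tested.

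Irf3, Irf5 and Irf7 act after nucleic acid sensing. Irf3 is present before a signal and is activated by phosphorylation, Irf7 is held at a high level in pDCs and drives their interferon alpha genes, and Irf5 acts below Toll-like receptors on inflammatory cytokine genes. Irf5 (chr6:29526625-29541871, plus strand) was at 170.0, 122, 112 and 167 CPM in pDC_TG, and at 274, 314 and 393 CPM in pDC_WT as lowest, median and highest. All pDC_TG libraries were below the pDC_WT range, with 44.9% of the pDC_WT level (log2FC -1.15, SE 0.11, adjusted p = 1.72e-09). The fall was -1.24 on the log2 scale without pDC_TG replicate 4 (adjusted p = 4.83e-09). Its exons share 14.1% of their bases with Tnpo3 on the annotation used here. How reads on these bases were counted is not given, so their effect on the Irf5 counts and level per kilobase is not known.

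pDC_TG had the lowest Irf5 level of the 4 groups. The lowest, median and highest were 706, 732 and 766 CPM in cDC1_WT and 367, 434 and 481 CPM in cDC2_WT. pDC_TG was 5.12-fold below cDC1_WT (log2FC -2.36, SE 0.11, adjusted p = 2.18e-17) and 3.02-fold below cDC2_WT (log2FC -1.59, SE 0.11, adjusted p = 1.33e-13), without overlap in either comparison. Between the controls cDC1_WT was above cDC2_WT (log2FC 0.76, adjusted p = 3.5e-09) and above pDC_WT (log2FC 1.20, adjusted p = 8.13e-14). cDC2_WT was above pDC_WT with some overlap (log2FC 0.44, adjusted p = 3.12e-05), a difference that did not pass a test against a 1.5-fold change (adjusted p = 1). cDC1_WT libraries were also the most even, with a coefficient of variation of 2.66% for Irf5.

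Irf7 (chr7:141262706-141266481, minus strand) separated pDCs from conventional DCs. It was at 683, 607, 685 and 727 CPM in pDC_TG, and at 476, 653 and 755 CPM as lowest, median and highest in pDC_WT. The pDC_TG libraries fell inside the pDC_WT range, with no call (log2FC 0.10, 95% interval -0.15 to 0.35, adjusted p = 0.695). The conventional DCs had 147, 183 and 216 CPM in cDC1_WT and 127, 152 and 179.6 CPM in cDC2_WT.

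pDC_TG exceeded cDC1_WT in Irf7 by 3.67-fold (log2FC 1.87, SE 0.12, adjusted p = 1.61e-14) and cDC2_WT by 4.43-fold (log2FC 2.15, SE 0.12, adjusted p = 9.66e-16). cDC1_WT was 3.41-fold below pDC_WT (adjusted p = 1.5e-15) and cDC2_WT 4.12-fold below it (adjusted p = 6.43e-17). The small difference between cDC1_WT and cDC2_WT passed the test (log2FC 0.27, adjusted p = 0.0261), but not with the replicates 1 to 4 alone (adjusted p = 0.125), with 5 to 8 alone (adjusted p = 0.122) or with total counts as the scaling (adjusted p = 0.153).

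Irf3 (chr7:44997648-45002848, plus strand) was the flattest member. Its levels were 74.6, 62.5, 64.9 and 53.0 CPM in pDC_TG, and as lowest, median and highest 52.1, 63.9 and 69.9 CPM in cDC1_WT, 56.5, 66.3 and 79.7 CPM in cDC2_WT and 52.6, 67.0 and 82.8 CPM in pDC_WT. The ranges overlapped in every pair of groups, and none of the 6 comparisons passed the test. For pDC_TG versus pDC_WT the log2FC was -0.07 (95% interval -0.31 to 0.16, adjusted p = 0.787). With total counts as the scaling, Irf3 passed in cDC1_WT versus pDC_WT (log2FC -0.35, adjusted p = 0.00250) and in pDC_TG versus cDC1_WT (log2FC 0.32, adjusted p = 0.0196), where this scaling moved the median of all genes by -0.25 and 0.29. Per kilobase, the ratio of Irf7 to Irf3 was 8.35 to 12.5 in pDC_TG, 2.22 to 3.39 in cDC1_WT, 1.86 to 2.34 in cDC2_WT and 5.30 to 9.95 in pDC_WT.

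Irf9 (chr14:55603571-55610030, plus strand) encodes the DNA-binding subunit of ISGF3, the complex that carries the type I interferon signal. It was at 237, 261, 299 and 274 CPM in pDC_TG, and at 217, 248 and 274 CPM as lowest, median and highest in pDC_WT. These groups overlapped, and their difference did not pass the test (log2FC 0.12, 95% interval -0.10 to 0.34, adjusted p = 0.577). The values were 134, 179 and 212 CPM in cDC1_WT and 183, 218 and 276 CPM in cDC2_WT.

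cDC1_WT had the lowest mean Irf9 level. It was below pDC_WT (log2FC -0.49, adjusted p = 1.9e-05) and below cDC2_WT (log2FC -0.33, adjusted p = 0.00282), and pDC_TG was above it (log2FC 0.61, adjusted p = 1.415e-05). None of these 3 differences passed a test against a 1.5-fold change. The difference of cDC2_WT from pDC_WT did not pass (log2FC -0.16, adjusted p = 0.120), but did with the replicate block (adjusted p = 0.0156) and with total counts as the scaling (adjusted p = 0.00331). pDC_TG was above cDC2_WT (log2FC 0.28, adjusted p = 0.0314), but not without pDC_TG replicate 3 (adjusted p = 0.124) or replicate 4 (adjusted p = 0.0702).

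**Figure D3:**
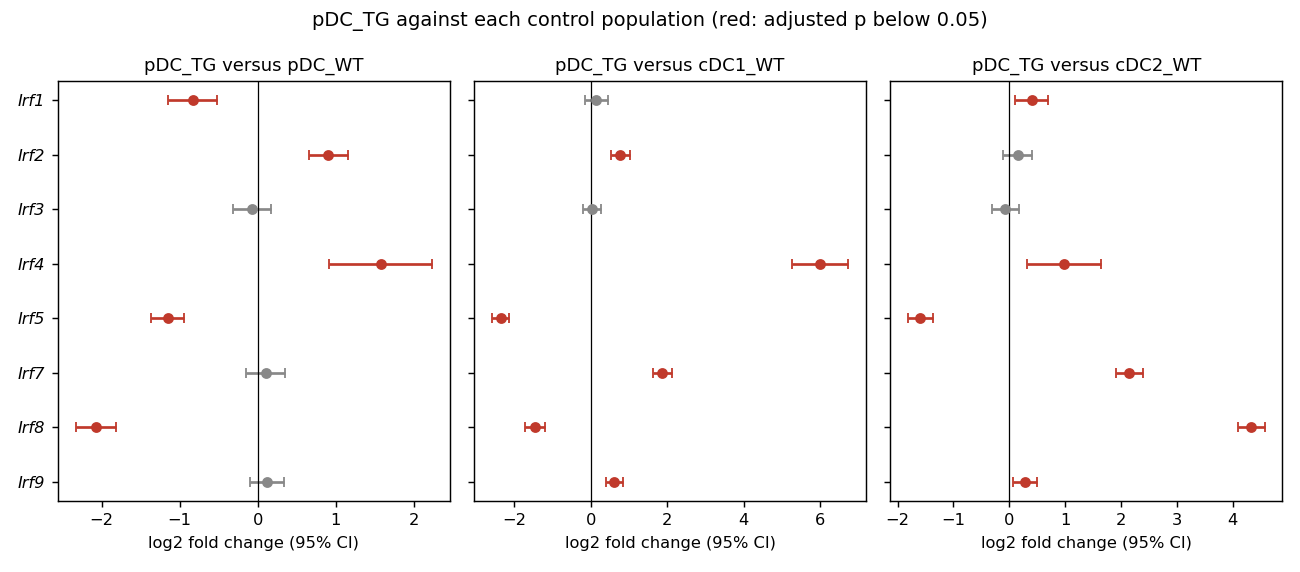
Log2 fold change of each IRF gene in pDC_TG over each control population, with its 95% interval (bars). Red points passed an adjusted p of 0.05 and grey points did not. Irf5 lies below 0 against all 3 controls, and Irf8 lies below pDC_WT and cDC1_WT and above cDC2_WT.

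In each of the other comparisons 5 or 6 of the 8 genes were called, beside 46.2% to 60.9% of all genes. cDC1_WT versus pDC_WT had 6 of 8 genes called, 1 higher and 5 lower, where 60.9% of all genes were called (30.6% higher and 30.3% lower). cDC2_WT versus pDC_WT had 5 of 8 called, 2 higher and 3 lower, beside 57.1% of all genes (28.8% higher and 28.3% lower), and cDC1_WT versus cDC2_WT 6 of 8, 3 in each direction, beside 46.2% (22.8% higher and 23.4% lower). pDC_TG versus cDC1_WT had 6 called (4 higher, 2 lower) beside 53.6% of all genes (27.1% higher and 26.6% lower), and pDC_TG versus cDC2_WT 6 (5 higher, 1 lower) beside 48.2% (24.3% higher and 23.9% lower). Without pDC_TG replicate 4 these were 6 against cDC1_WT and 4 against cDC2_WT. Irf5, Irf7 and Irf8 were among the genes called in both, with log2FC of -2.43, 1.85 and -1.56 against cDC1_WT and -1.68, 2.11 and 4.23 against cDC2_WT. These comparisons share control or pDC_TG libraries and are not independent of each other.

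The summed level of the 8 genes per kilobase of exon was lower in pDC_TG, at 602 to 739.7 CPM per kb, than in pDC_WT, at 1171 to 1443 CPM per kb. Without Irf8 the sums overlapped, at 436 to 486 CPM per kb in pDC_TG and 396 to 534 CPM per kb in pDC_WT. cDC1_WT had 918 to 1016 CPM per kb and cDC2_WT 324 to 391 CPM per kb. Irf8 made up 31.3% ± 2.89 of the sum in pDC_TG (SD, n = 4), 58.3% ± 0.914 in cDC1_WT, 2.92% ± 0.742 in cDC2_WT and 65.02% ± 1.77 in pDC_WT (n = 8 each). By mean share Irf8 was the leading member in all groups except cDC2_WT, where Irf5 led with 41.7% ± 2.53. In pDC_TG the shares of Irf8 (27.5% to 34.2%) and Irf7 (25.1% to 30.2%) overlapped. In pDC_TG replicate 3 Irf7 was at 181.5 CPM per kb, above Irf8 at 165 CPM per kb.

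In pDC_TG, Irf7 made up 27.3% ± 2.23 of the sum and Irf4 13.5% ± 2.52, against 12.4% ± 1.72 and 2.21% ± 0.780 in pDC_WT for the same genes in that order. A share also rises when the sum falls, and the level of Irf7 itself was not called between these groups (log2FC 0.10, adjusted p = 0.695). In cDC1_WT, Irf5 came after Irf8 with 25.8% ± 1.04. With the longest annotated transcript as the length, the Irf8 share was 41.6% in pDC_TG and 73.3% in pDC_WT, that of Irf7 20.8% in pDC_TG and 8.01% in pDC_WT, that of Irf4 9.07% in pDC_TG and 1.26% in pDC_WT, and the leading member of each group was the same.

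**Figure D4:**
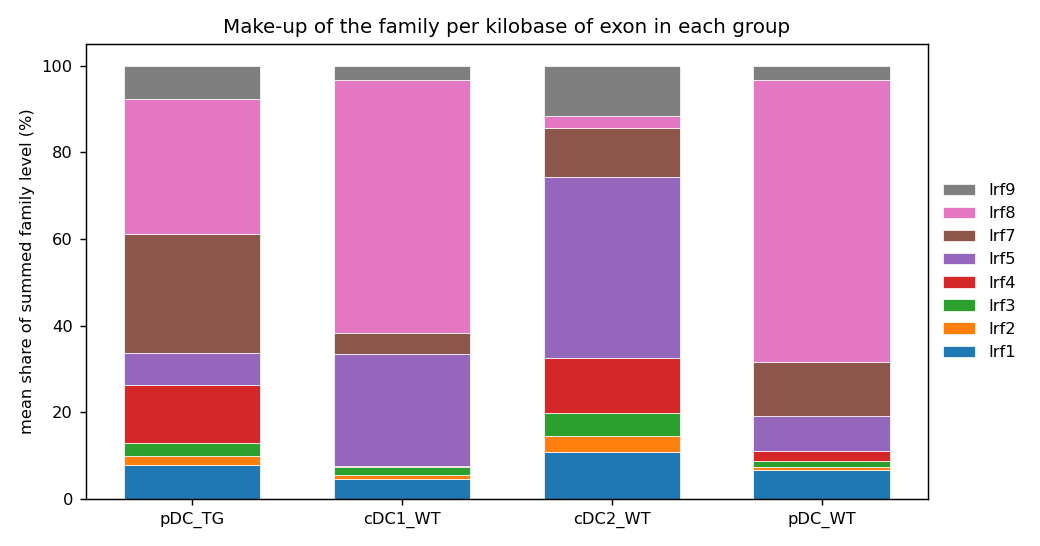
Mean share of each IRF gene in the family's summed level per kilobase of exon, in percent, for pDC_TG (4 libraries) and cDC1_WT, cDC2_WT and pDC_WT (8 each). Irf8 fills 31.3% of the bar in pDC_TG and 65.02% in pDC_WT, and Irf5 is the largest part in cDC2_WT.

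Genes with the most similar profile over the 28 libraries were taken by Pearson correlation of log2 CPM among 8051 genes, which largely reflects differences between the same 4 groups. For Irf8 they were Nek6, a kinase gene (r = 0.990), and Mpeg1, which encodes a pore-forming protein of phagocytes (r = 0.985). Nek6 averaged 122 CPM in pDC_TG, 234 CPM in cDC1_WT, 15.4 CPM in cDC2_WT and 379 CPM in pDC_WT, in the same order of groups as Irf8. For Irf4 they were Klrd1, the CD94 receptor gene (r = 0.960), and the sodium channel gene Scn3a (r = 0.959). Klrd1 averaged 676 CPM in pDC_TG, 6.10 CPM in cDC1_WT, 191 CPM in cDC2_WT and 226 CPM in pDC_WT.

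Irf7 was closest to the surface antigen genes Ly6a (r = 0.984) and Ly6c2 (r = 0.980), and Irf5 to Gramd3 (r = 0.962) and the actinin gene Actn1 (r = 0.958). For Irf1 the nearest were Chst12 (r = 0.895) and Xbp1 (r = 0.892), for Irf2 the interferon-inducible genes Rtp4 (r = 0.875) and Zbp1 (r = 0.874), and for Irf9 Calhm2 (r = 0.912) and Dusp7 (r = 0.875). Rtp4 averaged 150.1 CPM in pDC_TG, 0.521 CPM in cDC1_WT, 98.2 CPM in cDC2_WT and 1.57 CPM in pDC_WT. Its high groups were those with the higher Irf2 level. Rtp4 and Nek6 were picked by correlation over these libraries, so the likeness of their groups to those of Irf2 and Irf8 comes from that choice. The lowest values belonged to Irf3, with Kat5 (r = 0.648) and Top3b (r = 0.605).

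Of 21 genes of signalling to IRFs, 5 rose, 1 fell and 15 did not pass between pDC_TG and pDC_WT, with a median log2FC of 0.01, where 14.8% of all genes were called. Without pDC_TG replicate 4, 6 were again called. The rises included the RNA sensor genes Ddx58 (RIG-I; 55.4 ± 11.3 CPM in pDC_TG and 3.37 ± 1.83 CPM in pDC_WT, adjusted p = 2.61e-06) and Ifih1 (MDA5; 34.8 ± 4.56 CPM in pDC_TG and 16.7 ± 6.10 CPM in pDC_WT, adjusted p = 0.000349). The endosomal RNA sensor gene Tlr3 was called higher at a low level, with 2.48 ± 1.99 CPM in pDC_TG and 0.204 ± 0.372 CPM in pDC_WT. Its libraries overlapped (lowest 0.766 CPM in pDC_TG, highest 1.07 CPM in pDC_WT), and pDC_WT held 37 counts in all. In cDC1_WT, Tlr3 averaged 348 CPM. Tlr7 fell to 235 ± 32.8 CPM in pDC_TG, against 384 ± 63.6 CPM in pDC_WT. Myd88, the adaptor through which Irf5 and Irf7 are engaged, was at 134 ± 4.05 CPM in pDC_TG and 130 ± 12.2 CPM in pDC_WT (adjusted p = 0.861).

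Of 10 genes of the interferon receptors and the ISGF3 arm, 2 rose, 4 fell and 4 did not pass (median log2FC -0.21). Of all genes, 14.8% were called. Without pDC_TG replicate 4, 6 genes of this list were called as well. The receptor kinase genes Tyk2 (69.9 ± 12.2 CPM in pDC_TG and 122 ± 16.2 CPM in pDC_WT, log2FC -0.80, adjusted p = 2.8e-05) and Jak2 (68.2 ± 16.2 CPM in pDC_TG and 123 ± 26.2 CPM in pDC_WT, log2FC -0.85, adjusted p = 6.33e-05) fell. Ifngr1, a chain of the interferon gamma receptor, rose to 101 ± 15.3 CPM in pDC_TG, against 67.1 ± 10.9 CPM in pDC_WT, and Usp18, an inhibitor of the type I receptor, to 231 ± 37.0 CPM in pDC_TG, against 155 ± 26.2 CPM in pDC_WT. Stat2, a partner of Irf9 in ISGF3, was at 119 CPM in pDC_TG and 132 CPM in pDC_WT (adjusted p = 0.834).

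Among 17 IRF partner and co-regulator genes, 2 rose, 2 were called lower and 13 did not pass (median log2FC 0.07), beside 14.8% of all genes called. Spi1, which encodes PU.1, the ETS partner of Irf4 and Irf8, rose to 201 ± 18.6 CPM in pDC_TG, against 96.2 ± 11.2 CPM in pDC_WT (log2FC 1.07, SE 0.08, adjusted p = 1.28e-11). Its relative Spib, the ETS partner most abundant in pDCs, was at 1244 ± 135 CPM in pDC_TG and 1189 ± 211 CPM in pDC_WT (adjusted p = 0.952). Of the AP-1 genes, Junb rose (log2FC 0.41, adjusted p = 0.0200) and Jund fell (log2FC -0.60, adjusted p = 0.0129). The other gene called lower was Batf3, an AP-1 partner that cDC1s need, with 0 counts in pDC_TG and 16 counts in pDC_WT. It passed the filter on low counts through cDC1_WT (101 CPM) and cDC2_WT (52.4 CPM), so its call between the pDC groups is not read as a fall. These calls moved with single libraries: leaving out pDC_TG replicate 3 left 1 gene called, and leaving out pDC_TG replicate 2 or 4 left 2 (both higher, without replicate 4).

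Many targets with interferon response elements rose, while the interferon genes themselves were scarce. Of 25 such targets, 14 rose, 1 fell and 10 did not pass, with a median log2FC of 1.03, against 0 over all genes. Of all genes tested, 7.72% were called higher and 7.04% lower. This list, like the others, was chosen with earlier results of these data known, so its counts are a description and no test. Without pDC_TG replicate 4, 14 rose and 1 fell. Examples are Oas3 (48.7 ± 5.77 CPM in pDC_TG and 7.35 ± 2.34 CPM in pDC_WT), Isg20 (26.9 ± 5.72 CPM in pDC_TG and 6.66 ± 1.81 CPM in pDC_WT) and the GTPase gene Gbp2 (19.9 ± 4.95 CPM in pDC_TG and 2.18 ± 1.35 CPM in pDC_WT). The immunoproteasome gene Psmb8 fell to 743 CPM in pDC_TG, against 956 CPM in pDC_WT (log2FC -0.36).

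Of 20 interferon genes, 4 had a count in pDC_TG, 5 in pDC_WT, 0 in cDC1_WT and 2 in cDC2_WT. Ifnb1 had 7 counts over the 4 pDC_TG libraries and 49 over the 8 pDC_WT libraries. A floor of 3 counts over a group corresponds to 0.0292 CPM in pDC_TG and 0.0157 CPM in pDC_WT and covers counting error only. Ifng alone passed the filter on low counts, through pDC_TG, the group where it is high, so no test of it is given. It was at 4.27 ± 1.58 CPM in pDC_TG and 0.273 ± 0.405 CPM in pDC_WT.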

How the data were processed

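For each library the authors deposited unnormalized counts of reads by gene symbol. The 5 summary lines at the end of each file were dropped; between 8.23% and 18.7% of a library's reads lay outside genes. Per the labels' protocols, SMART-Seq v4 amplification started from 4 ng of RNA and sequencing gave single 75 bp reads; the protocol does not mark strand. The submitters' processing notes name mm10, TopHat2 2.1.0, SAMtools 0.1.18, Trimmomatic 0.35 and FastQC 0.11.4. Which tool counted the reads, on which annotation, is not given in the sources used here.

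Counts were fitted in R 4.3.3 with edgeR 4.0.16: TMM factors, filterByExpr by group (minimum count 10, minimum total 15) and 1 robust quasi-likelihood fit of all 28 libraries, checked on simulated counts. Standard errors are the log2 fold change over the root of the test's F, and log2 CPM used a prior count of 2. Exon lengths and positions are from GENCODE M21 (GRCm38), promoter sequences from RefSeq. The labels give each library of a group its own mouse number (1 to 8 in the WT groups, 1 to 4 in pDC_TG) and do not say whether a number stands for 1 animal or a pool, or whether WT groups share animals. No 2 libraries of a group agreed within sampling noise (lowest chi-square per degree of freedom 34.9). Some items of the family and lists are not reported here. The members and lists were chosen with earlier results of these data known. Named beside the family are up to 4 genes per list, those of lowest adjusted p for pDC_TG versus pDC_WT, and the 2 genes most similar to each member; Myd88, Stat2, Spib, Psmb8, Ifnb1 and the markers given were chosen after their values were seen. Alternatives were DESeq2 1.42.0, other scaling and filters, fewer libraries, a 1.5-fold threshold and a replicate block.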

Additional observations from a re-analysis of the deposited data

Results flagged for a closer look

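In 32 combinations of a gene and a group, 1 had a library far from the rest, by the gap to its nearest neighbour relative to the range (chance gives about 1 in 20). Irf4 in cDC2_WT replicate 3 was at 384.55 CPM, against 250.4 CPM in the next library.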

How the results depend on the processing

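The count of IRF genes called between pDC_TG and pDC_WT was 5 under each of 21 alternatives except that it was 4 against a 1.5-fold change, where Irf1 did not pass. Irf8 kept its fall in each (log2FC -2.18 to -1.98 with single libraries left out). Against a 1.5-fold change, 3 members were called in cDC2_WT versus pDC_WT, 3 in cDC1_WT versus cDC2_WT and 3 in pDC_TG versus cDC2_WT; by the alternative's construction smaller changes drop out. In that test 531 genes in all were called between pDC_TG and pDC_WT, 4777 between cDC1_WT and pDC_WT, 4390 between cDC2_WT and pDC_WT, 2746 between cDC1_WT and cDC2_WT, 4359 between pDC_TG and cDC1_WT and 3612 between pDC_TG and cDC2_WT, against 1943, 8012, 7517, 6085, 7055 and 6341 in the same order. It called 2 genes of signalling to IRFs, 0 of the ISGF3 arm and 1 partner. Partners called were 2 with only the 2 groups compared and 2 with WT replicates 5 to 8 alone. The cause was not tested. With single libraries left out, the counts ran from 4 to 6 (family, pDC_TG versus cDC2_WT), 4 to 7 (signalling), 4 to 6 (ISGF3 arm) and 1 to 5 (partners).

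Total counts as the scaling moved the median log2FC of all genes by -0.25 in cDC1_WT versus pDC_WT, -0.15 in cDC2_WT versus pDC_WT, 0.29 in pDC_TG versus cDC1_WT and 0.20 in pDC_TG versus cDC2_WT, and turned the uncalled sign of Irf2 in the first (log2FC -0.12) and of Irf3 in the last (0.13). The share of calls that were higher was then 36.6%, 40.6%, 66.5% and 63.2% in these comparisons, against 50.3%, 50.4%, 50.5% and 50.5% with TMM. RLE turned the sign of Irf3 in cDC2_WT versus pDC_WT (0.01), also uncalled. Total counts gave family counts of 7 (cDC1_WT versus pDC_WT), 6 (cDC2_WT versus pDC_WT), 5 (cDC1_WT versus cDC2_WT), 8 (pDC_TG versus cDC1_WT) and 7 (pDC_TG versus cDC2_WT).

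Mouse numbers recur in the 3 WT groups, but no label says that a number is the same animal in each. Deviations from the group means correlated at 0.0246 to 0.108 in 24 pairs of WT libraries, 1 of them over 0.1. Of these, 21 correlated best with their own number among the 8 libraries of the other group. With pDC_TG the range was -0.0269 to 0.0627 in 12 pairs, 1 of them best with its own number. The main fit does not use the number, so what same-numbered WT libraries share stays in its spread. With the replicate block the family counts were 6 (cDC1_WT versus pDC_WT), 7 (cDC2_WT versus pDC_WT), 6 (cDC1_WT versus cDC2_WT), 5 (pDC_TG versus pDC_WT), 6 (pDC_TG versus cDC1_WT) and 4 (pDC_TG versus cDC2_WT), and 3 genes of the ISGF3 arm were called. The block called Irf4 (adjusted p = 0.00562) and Irf9 (adjusted p = 0.0156) between cDC2_WT and pDC_WT. All genes called between pDC_TG and pDC_WT were then 1084, with 4 libraries a group.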

Other observations

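Irf4 levels of same-numbered cDC2_WT and pDC_WT libraries moved together. In cDC2_WT replicates 1 to 8 Irf4 was at 154, 147, 385, 195, 162, 233, 239 and 250.4 CPM, and in pDC_WT replicates 1 to 8 at 97.7, 103, 253, 129, 95.9, 203, 138 and 146 CPM. Over the 8 numbers Pearson's r of log2 CPM was 0.924 (exact permutation p = 0.00144) and Spearman's rho 0.833 (exact permutation p = 0.0154). Without the 2 numbers farthest from the cDC2_WT median r was 0.838. In all 24 correlations over the 8 IRF genes and 3 pairs of WT groups, adjustment by Benjamini-Hochberg gave 0.0345 for r, the only value below 0.05, and 0.0923 for rho. In cDC1_WT, where Irf4 is near its lowest, r with pDC_WT was 0.678 (exact permutation p = 0.0545). The pattern was not particular to Irf4. For Irf9 rho was 0.857 between cDC2_WT and pDC_WT (exact permutation p = 0.0107) and 0.881 between cDC1_WT and cDC2_WT (exact permutation p = 0.00724). Both were 0.0923 after adjustment, and r for these pairs was 0.830 and 0.804 (adjusted 0.103 and 0.105). Of the 24 values of r, 17 were positive and the rest negative.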
